A study of Mus musculus with 9 samples.

Results

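The extracellular matrix of the gut wall is cut and remodelled by secreted and membrane-bound zinc proteases, and 10 genes of this system, encoding 4 ADAMTS enzymes, the related sheddase ADAM19, 3 matrix metalloproteinases and 2 of their tissue inhibitors, were examined in the embryonic mouse hindgut. They were found as all probe sets of the array whose annotation named one of these 10 symbols and no other gene. This gave 26 probe sets, of 45101 on the array, for 9 of the 10 genes. Adamts2, which encodes a procollagen propeptidase, was named by none of these probe sets and was not analysed here. Timp2 had 6 probe sets, Adamts5 and Timp3 had 4 each, Adamts9 and Mmp14 had 3 each, Adam19 and Mmp2 had 2 each, and Adamts1 and Mmp11 had 1 each.

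RNA of the terminal colon at embryonic day 14, per the sample labels (14.5 in the series text), was hybridised to 9 arrays of the Affymetrix MOE430 platform (version 2), with 3 arrays in each group. Wild type embryos (arrays 1B, 1C and 1D) were compared with embryos of the genotype Ednrb -/-, given as lacZ/lacZ in the dissection protocol (Ednrb null, arrays 29, 37 and 41) and with Ednrb-FLEX embryos labelled as lacking the gene in NCC (Ednrb NCC null, arrays 2, 5 and 6). Ednrb encodes endothelin receptor B, which the neural crest cells that form the enteric nervous system need to reach the distal gut. The labels do not give the Cre driver of the Ednrb-FLEX allele, strain or littermate status, nor whether an array held RNA of a single embryo or of a pool, so p-values measure the spread between these RNA samples, which may in part be technical.

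In their roles these proteins form a chain. The matrix metalloproteinases and ADAMTS enzymes are made as inactive proenzymes, many of which are opened by furin-like convertases, and are then held in check by the TIMP proteins. MMP14, which sits in the cell membrane, activates pro-MMP2 on the cell surface with TIMP2 as the bridge between them. ADAMTS1, ADAMTS5 and ADAMTS9 cut versican and other large proteoglycans of the loose matrix through which cells migrate, and MMP2 activity is known for its part in the migration of enteric neural crest cells.

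Adamts1 and Mmp14 were the members that differed from wild type by the test, and both were lower, so the region before the start of each gene is shown for their sequence. These are the 250 bases before the RefSeq transcription start, from the GRCm38.p6 assembly, for Adamts1 at chr16:85803114-85803363 on the minus strand and for Mmp14 at chr14:54431348-54431597 on the plus strand. Capitals mark a TATA box (TATAAA), GC box (GGGCGG) or CCAAT box (CCAAT) found on either strand.
Adamts1: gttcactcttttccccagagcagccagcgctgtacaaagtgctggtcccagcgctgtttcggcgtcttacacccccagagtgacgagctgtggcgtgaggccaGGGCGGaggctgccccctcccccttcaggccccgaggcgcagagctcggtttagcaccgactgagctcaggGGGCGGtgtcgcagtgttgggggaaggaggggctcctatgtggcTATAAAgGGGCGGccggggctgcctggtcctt
Mmp14: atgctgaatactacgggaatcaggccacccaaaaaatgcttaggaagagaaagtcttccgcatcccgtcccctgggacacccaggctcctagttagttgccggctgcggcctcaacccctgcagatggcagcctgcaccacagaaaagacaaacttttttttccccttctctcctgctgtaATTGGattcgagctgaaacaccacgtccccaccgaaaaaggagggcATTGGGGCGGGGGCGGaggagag

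The Adamts1 region held a TATA box whose first base lay 32 bases before the start, and GC boxes 147, 76 and 25 bases before it. TATAAA was present in 12.4% of the 32851 mouse regions of the same length and GGGCGG in 32.7%. The Mmp14 region held no TATAAA. It had GC boxes 19 and 13 bases before the start and reverse-strand CCAAT boxes 69 and 23 bases before it, the nearer one overlapping a GC box. CCAAT was present in 33.8% of regions. Neither region held the AP-1 motif TGANTCA or the E-box CACGTG, which were present in 6.75% and 6.02% of regions, so of the motifs searched the GC box was the one found in both regions. Of the 10 genes, 8 matched the table of start regions. All of these but Adam19 held a GC box, among them Adamts9, Mmp11, Timp2 and Timp3, which were not called. The GC box thus does not set Adamts1 and Mmp14 apart from the other members. These matches describe letters in a window and no binding was measured.

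The arrays were similar in brightness, with median intensities of 112 to 116, but some stood apart in particular genes. Ednrb itself had a mean log2 intensity of 9.13 ± 0.33 in Ednrb null against 11.02 ± 0.07 in wild type and 11.17 ± 0.14 in Ednrb NCC null (SD, n = 3 each), so whole-tissue Ednrb was not lower in the group labelled as lacking it in NCC. Wild type 1C had a log2 Xist intensity of 6.70, against 11.60 to 14.07 on the other 8 arrays. The Y-linked Uty read 3.32 on Ednrb NCC null 2 and 5.35 to 8.51 on the other 8 arrays, so most arrays with a high Xist value also had Y-linked signal. Wild type 1B had the lowest mean log2 intensity of 8 mesothelial markers, 7.13 against 8.53 to 9.33 elsewhere, with Krt19 the marker that was not lowest there. Endothelial and skeletal muscle markers, 8 of each, had no called gene in any comparison. Of 8 smooth muscle markers 1 was lower in Ednrb null and 1 higher in Ednrb NCC null than in wild type, and of 8 mesothelial markers 1 was higher in Ednrb NCC null. The log2 ratio of the 3′ to the 5′ Actb control, which rises as RNA is shortened, was 0.87 ± 0.06 in Ednrb null, 1.18 ± 0.13 in wild type and 1.21 ± 0.18 in Ednrb NCC null. All Ednrb null arrays, at 0.80 to 0.90, lay below all others, at 1.03 to 1.40. In comparisons with Ednrb null the ratio and the genotype therefore cannot be told apart. Losing a call there with the ratio in the model does not decide whether the call holds. For the protease, inhibitor and substrate genes named below, calls that were lost without wild type 1C or with the Actb ratio in the model are marked as such.

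All values below are log2 of the deposited intensity, so a difference of 1 is a doubling, and a gene was called where the adjusted p of the limma fit over all 18193 genes was under 0.05. A gene is represented by its brightest probe set unless another is named. In Ednrb null against wild type, 2 of the 9 measured members were called, Adamts1 and Mmp14, both lower, while 5.04% of all genes were called. In Ednrb NCC null against wild type 1 of 9 was called, Adamts1, against 4.96% of all genes, and between the mutants none was called, against 6.52%. Counted by probe set, 2, 1 and 0 of 26 were called in the same order, against 5.03%, 3.58% and 4.41% of the 45037 probe sets that are not array controls. At an unadjusted p under 0.05 the counts were 7, 6 and 5 of 26, and 17.3%, 17.0% and 17.3% of all probe sets passed that mark. With 9 genes a single call moves the share widely, and nothing is read from the members as a group. Against wild type the median member difference was -0.15 for Ednrb null and -0.18 for Ednrb NCC null, where the medians of all genes were 0.04 and 0.02. Both comparisons share the 3 wild type arrays.

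**Figure D1:**
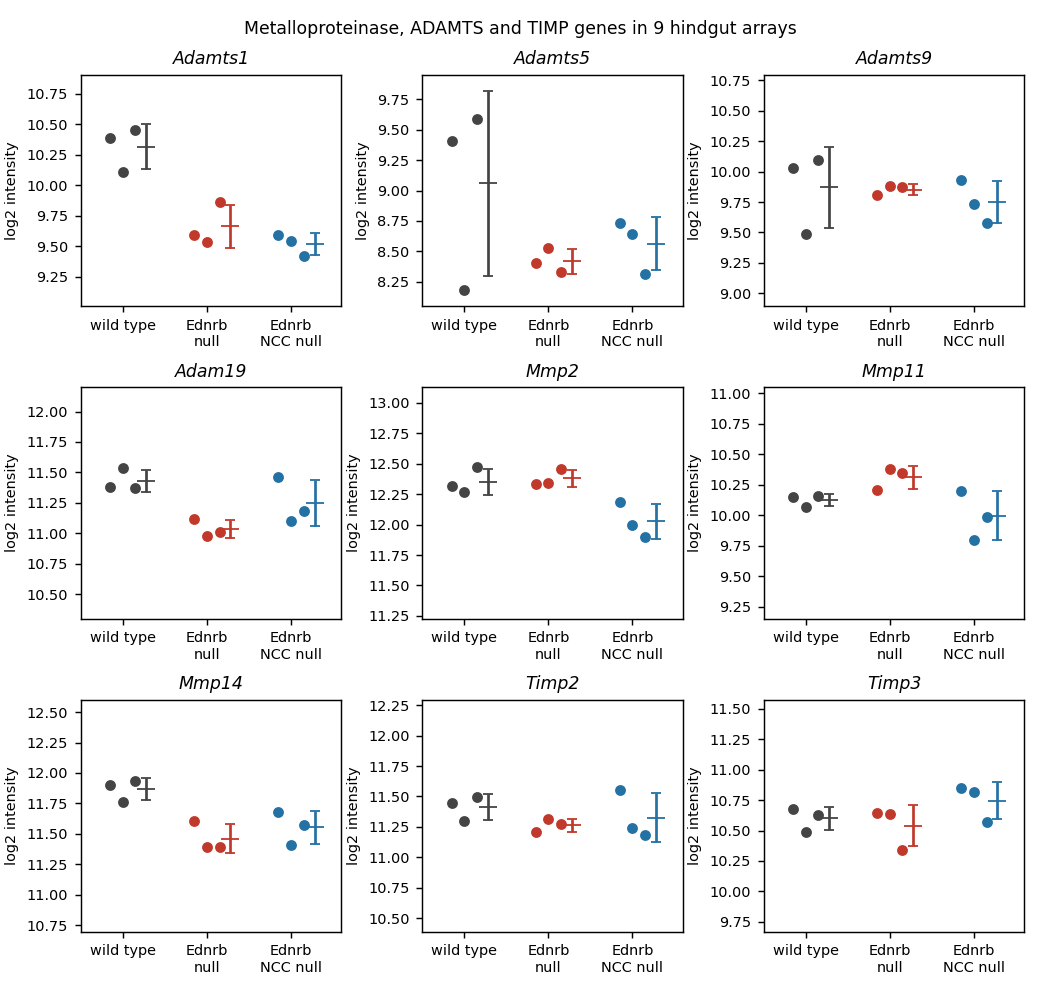
Log2 intensity of the brightest probe set of each of the 9 measured genes on the 9 arrays. Points are arrays, the bars beside them are group means ± SD (n = 3), and each panel spans the same width on the log2 axis. The Adamts1 wild type arrays, at 10.11 to 10.45, lie above all 6 mutant arrays, and the Adamts5 wild type arrays are split, with 1C at 8.19.

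Adamts1, a secreted protease that cuts versican and aggrecan, had the smallest adjusted p of the members in both comparisons with wild type. Its log2 intensity was 10.39, 10.11 and 10.45 on wild type arrays 1B, 1C and 1D. It was 9.59, 9.53 and 9.86 on Ednrb null arrays 29, 37 and 41, and 9.59, 9.54 and 9.42 on Ednrb NCC null arrays 2, 5 and 6. Each mutant array lay below each wild type array, and the mutant groups overlapped each other. Adamts1 fell to 63.5% of the wild type level in Ednrb null, a log2 difference of -0.66 (95% interval -0.91 to -0.40, adjusted p = 0.00853). In Ednrb NCC null it fell to 57.4%, a difference of -0.80 (-1.06 to -0.54, adjusted p = 0.00396). The mutants differed from each other by 0.14 (-0.11 to 0.40, adjusted p = 0.565), an interval that spans 0.

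The Adamts1 difference was called in both mutants on leaving out either wild type array that stood apart above, 1B or 1C. Without wild type 1C it was -0.76 in Ednrb null (adjusted p = 0.00332) and -0.91 in Ednrb NCC null (adjusted p = 0.00254). When the Actb ratio was added to the model, the Ednrb null difference was -0.51 and no longer called (adjusted p = 0.347), while that in Ednrb NCC null was -0.82 (adjusted p = 0.00472). Markers of enteric neural crest moved with Adamts1. Of 8 measured, of 11 listed, 6 were lower in Ednrb null, 4 were lower in Ednrb NCC null and none was higher, and their mean log2 intensity was 7.49 to 8.42 on wild type arrays, 6.22 to 6.64 in Ednrb null and 6.44 to 6.65 in Ednrb NCC null. Their part in the Adamts1 result was not tested, and in whole tissue fewer cells of a type and less RNA per cell cannot be told apart. The genes whose 9-array profile lay closest to that of Adamts1 were Syt11, Cdh6 and Pdpn, with root mean square log2 differences of 0.106, 0.107 and 0.108 after centring each gene, where the median over all genes was 0.404. Pdpn, a membrane mucin, had log2 intensities of 9.59 to 10.05 in wild type, 8.92 to 9.31 in Ednrb null and 8.84 to 9.04 in Ednrb NCC null.

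Adamts5, the main aggrecanase of cartilage, lies next to Adamts1 on chromosome 16, with no protein-coding gene between them in the RefSeq table. It read 9.40 on wild type 1B and 9.59 on 1D, but 8.19 on 1C. It was 8.40, 8.53 and 8.33 in Ednrb null and 8.73, 8.64 and 8.32 in Ednrb NCC null. Wild type 1C was thus lower than every mutant array, while the other wild type arrays were higher than every mutant array. With all arrays the log2 difference was -0.64 in Ednrb null (95% interval -1.27 to -0.01, adjusted p = 0.251) and -0.49 in Ednrb NCC null (-1.12 to 0.14, adjusted p = 0.388), neither called. Without wild type 1C the Adamts5 differences were -1.08 (adjusted p = 0.00100) and -0.93 (adjusted p = 0.00411), both called. Leaving out wild type 1B instead gave -0.47 and -0.32, and leaving out 1D gave -0.38 and -0.23. In each mutant Adamts5 was called under 1 of 20 alternatives, the one without 1C. As 1C was the low wild type array, its removal enlarges the difference, and these calls add no support.

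The low Adamts5 value of wild type 1C was shared by other probe sets of the gene. Probe set 1456404_at read 9.14, 8.22 and 9.25 on wild type 1B, 1C and 1D, and 8.25 to 8.68 on the 6 mutant arrays. Probe set 1450658_at read 7.26, 6.70 and 7.42 in wild type and 6.47 to 7.02 in the mutants. With all arrays neither was called in either mutant, and their Ednrb null differences were both -0.49 (adjusted p = 0.274 and 0.134). Without wild type 1C their Ednrb null differences were -0.82 (adjusted p = 0.00194) and -0.70 (adjusted p = 0.00684). In Ednrb NCC null, also without wild type 1C, they were -0.63 (adjusted p = 0.0153) and -0.42 (adjusted p = 0.105). The dimmest, 1456969_at, stayed between 3.59 and 3.96 on all arrays.

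**Figure D2:**
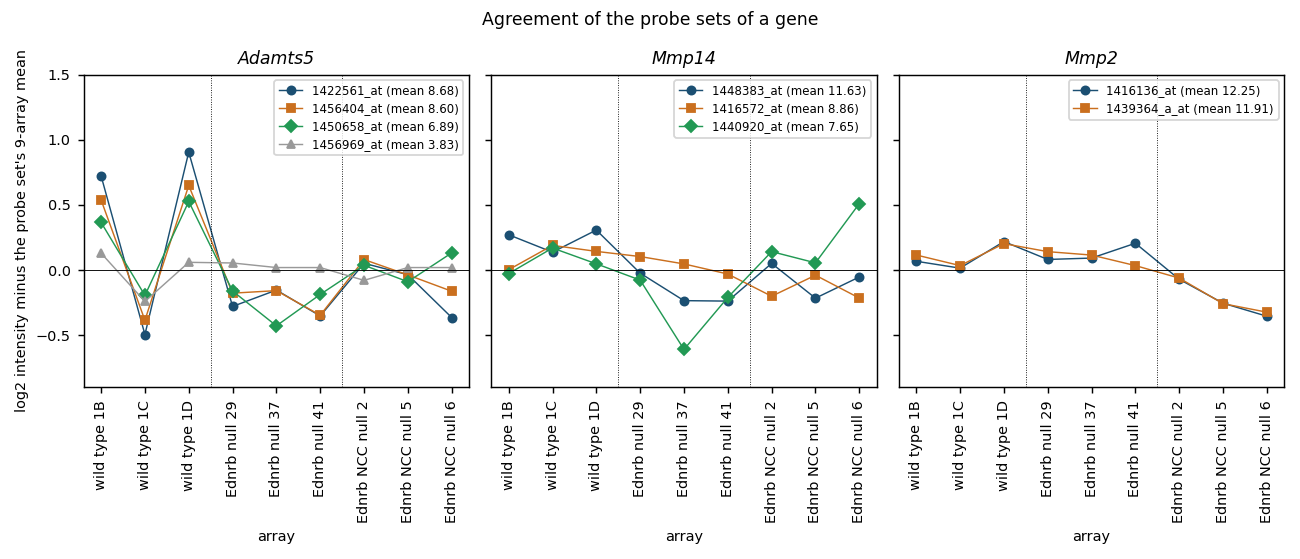
Log2 intensity of each probe set of Adamts5, Mmp14 and Mmp2 on the 9 arrays, as the difference from that probe set's own 9-array mean, which the legend gives. Lines join the arrays for readability and dotted lines part the groups. The 3 brighter Adamts5 probe sets dip together on wild type 1C, the Mmp2 probe sets run together, and the Mmp14 probe sets part from each other.

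Adamts9, a widely made secreted versican-cutting protease, was not called in any comparison. On the arrays it read 10.03, 9.49 and 10.10 in wild type, 9.81, 9.88 and 9.87 in Ednrb null and 9.93, 9.74 and 9.58 in Ednrb NCC null. Here too wild type 1C was the lowest of the 9 arrays. The difference was -0.02 in Ednrb null (95% interval -0.35 to 0.31) and -0.12 in Ednrb NCC null (-0.45 to 0.20). The other Adamts9 probe sets, 1430352_at and 1431399_at, had Ednrb null differences of 0.10 and 0.27 and were not called either.

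Adam19, a membrane-anchored protease that releases growth factors such as neuregulins from the cell surface, came just short of the threshold in Ednrb null. The arrays read 11.38, 11.54 and 11.37 in wild type, 11.12, 10.97 and 11.01 in Ednrb null and 11.47, 11.10 and 11.18 in Ednrb NCC null. The Ednrb null arrays lay below all wild type arrays, and the Ednrb NCC null arrays overlapped both groups. The Ednrb null level was 76.0% of wild type, a difference of -0.40 (95% interval -0.63 to -0.17, adjusted p = 0.0551). The Ednrb NCC null difference was -0.18 (-0.41 to 0.05, adjusted p = 0.385). The dimmer probe set 1418403_at gave -0.11 and -0.30, neither called. The Ednrb null difference of the brightest was called without Ednrb NCC null 2 (adjusted p = 0.0282), which enters the shared estimate of spread, and was -0.34 without wild type 1C (adjusted p = 0.126).

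Among the matrix metalloproteinases, Mmp14 was the member called. Its log2 intensity was 11.90, 11.76 and 11.93 in wild type, 11.60, 11.39 and 11.39 in Ednrb null and 11.68, 11.41 and 11.57 in Ednrb NCC null. All mutant arrays lay below all wild type arrays, though by a small margin, 11.68 against 11.76. Mmp14 fell to 75.6% of wild type in Ednrb null, a log2 difference of -0.40 (95% interval -0.62 to -0.19, adjusted p = 0.0398). The Ednrb NCC null level was 80.6% of wild type, a difference of -0.31 (-0.53 to -0.09, adjusted p = 0.104), which was not called. The mutants differed by -0.09 (-0.31 to 0.12), so a difference between them was not shown.

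The Mmp14 call was close to the threshold. It was lost without wild type 1B (adjusted p = 0.129), without wild type 1D (0.101), without Ednrb null 37 (0.132) or 41 (0.117) and without Ednrb NCC null 6 (0.0642). Without wild type 1C it was kept, at -0.45 (adjusted p = 0.0368), and adding the Actb ratio to the model gave -0.20 (adjusted p = 0.689). The other probe sets of Mmp14 were not called. Probe set 1416572_at differed from wild type by -0.07 in Ednrb null and by -0.26 in Ednrb NCC null, where its arrays lay below all wild type arrays. Probe set 1440920_at differed by -0.36 in Ednrb null, where its arrays lay below all wild type arrays, and by 0.17 in Ednrb NCC null. The genes closest in profile to Mmp14 were Marf1, Nf2 and Usp36, with root mean square differences of 0.0730, 0.0730 and 0.0760 against a median of 0.249 over all genes.

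**Figure D3:**
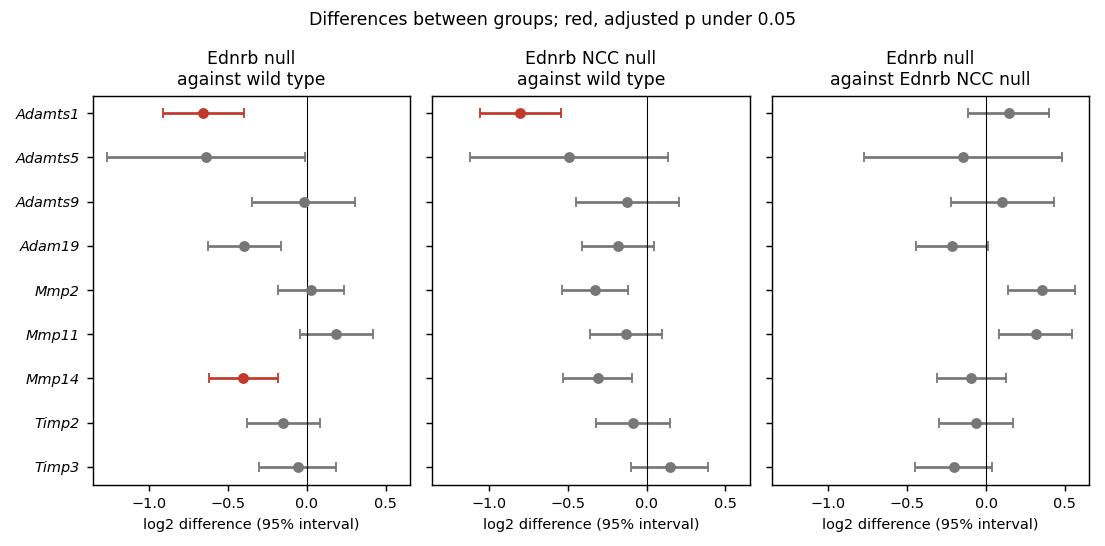
Log2 difference and 95% interval of the 9 measured genes in the 3 comparisons, from the limma fit over all genes. Red marks an adjusted p under 0.05, which applies to Adamts1 in both mutants and to Mmp14 in Ednrb null. Mmp2 lies at 0.03 in Ednrb null and at -0.33 in Ednrb NCC null.

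Mmp2, the gelatinase that MMP14 activates, had a different order. The Mmp2 values were 12.32, 12.27 and 12.47 in wild type, 12.33, 12.34 and 12.46 in Ednrb null and 12.18, 12.00 and 11.90 in Ednrb NCC null. The Ednrb NCC null arrays lay below all other arrays, and wild type and Ednrb null overlapped. The Ednrb NCC null level was 79.7% of wild type, a difference of -0.33 (95% interval -0.54 to -0.12, adjusted p = 0.0819), not called. Ednrb null exceeded Ednrb NCC null by 0.35 (0.14 to 0.56, adjusted p = 0.0532), also not called, and differed from wild type by 0.03 (-0.18 to 0.24, adjusted p = 0.918).

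The second Mmp2 probe set, 1439364_a_at, also had the Ednrb NCC null arrays lowest, at 12.03, 11.95 and 12.12 in wild type, 12.06, 12.03 and 11.95 in Ednrb null and 11.85, 11.66 and 11.59 in Ednrb NCC null. Its differences were -0.33 against wild type (adjusted p = 0.0817) and 0.31 between the mutants (adjusted p = 0.0958). Markers of gut mesenchyme were low on the same arrays. Of 10, 1 was called lower in Ednrb NCC null against wild type and all 10 were below 0, with a median of -0.18, and their mean log2 intensity was 11.80 to 11.89 in wild type, 11.77 to 11.83 in Ednrb null and 11.44 to 11.75 in Ednrb NCC null. Their part in the Mmp2 values was not tested. Without Ednrb NCC null 2, both Mmp2 differences from Ednrb NCC null passed the threshold, at -0.40 against wild type (adjusted p = 0.0493) and 0.43 between the mutants (adjusted p = 0.0309). That array was the nearest to the other groups, so its removal enlarges the differences, and these calls add no support. The difference between the mutants was also called without wild type 1D (adjusted p = 0.0475). Over 20 alternatives the adjusted p of Mmp2 ran from 0.0407 to 0.279 against wild type in Ednrb NCC null. Between the mutants it ran from 0.0162 to 0.206.

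Mmp11, which is activated inside the cell by furin and is made by stromal cells, was not called. Log2 intensity was 10.15, 10.07 and 10.16 in wild type, 10.20, 10.38 and 10.35 in Ednrb null and 10.20, 9.80 and 9.99 in Ednrb NCC null. The Ednrb null arrays lay above those of both other groups, with Ednrb null 29 and Ednrb NCC null 2 alike to 2 decimals. The difference was 0.19 in Ednrb null against wild type (95% interval -0.05 to 0.42, adjusted p = 0.372) and 0.32 between the mutants (0.08 to 0.55, adjusted p = 0.111). Without Ednrb NCC null 2 the latter was 0.42 and called (adjusted p = 0.0358). That array was the nearest of its group to Ednrb null, so its removal enlarges the difference. It was called under 1 of 20 alternatives, this one.

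No probe set of the inhibitors was called. TIMP2 both blocks metalloproteinases and serves MMP14 in the activation of pro-MMP2. Timp2 had a log2 intensity of 11.45, 11.30 and 11.49 in wild type, 11.21, 11.31 and 11.27 in Ednrb null and 11.55, 11.24 and 11.18 in Ednrb NCC null, so the groups overlapped. The difference was -0.15 in Ednrb null (95% interval -0.38 to 0.08, adjusted p = 0.486) and -0.09 in Ednrb NCC null (-0.32 to 0.15, adjusted p = 0.728).

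Timp3, the matrix-bound inhibitor that also blocks ADAMTS5 and several ADAMs, had a log2 intensity of 10.68, 10.49 and 10.63 in wild type, 10.65, 10.63 and 10.34 in Ednrb null and 10.85, 10.81 and 10.57 in Ednrb NCC null. The groups overlapped. The difference was -0.06 in Ednrb null (95% interval -0.30 to 0.19, adjusted p = 0.834) and 0.15 in Ednrb NCC null (-0.10 to 0.39, adjusted p = 0.535). The second brightest probe set, 1449335_at, was higher on all Ednrb NCC null arrays (10.67, 10.79 and 10.58) than on wild type arrays (10.41, 10.29 and 10.56), a difference of 0.26 that was not called (adjusted p = 0.184). The intervals of the brightest Timp2 and Timp3 probe sets spanned 0 in each of the 3 comparisons, so no shift was shown. The lowest bound was -0.45, for Timp3 between the mutants, and the highest 0.39, for Timp3 in Ednrb NCC null against wild type. In each comparison, shifts within that comparison's own interval are not excluded.

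Among 18 other measured ADAMTS and ADAMTS-like genes, of 21 listed, 2 were lower and 1 higher in Ednrb null against wild type, with a median difference of -0.01. In Ednrb NCC null 2 were lower and none higher, with a median of -0.12. Those lower in each mutant were Adamts19 and Adamts3. Adamts19, an orphan protease, had log2 intensities of 6.27, 6.54 and 6.07 in wild type, 5.54, 5.38 and 5.49 in Ednrb null and 5.17, 5.35 and 5.48 in Ednrb NCC null. It differed from wild type by -0.82 (adjusted p = 0.00328) and -0.96 (adjusted p = 0.00206), with every mutant array below every wild type array. The Adamts19 signal was dim, on all arrays below that of the brightest probe set of every measured member.

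Adamts3, a procollagen propeptidase that also takes part in the activation of VEGF-C, had log2 intensities of 8.09, 8.28 and 8.10 in wild type, 7.46, 7.63 and 7.56 in Ednrb null and 7.77, 7.52 and 7.33 in Ednrb NCC null. The mutant arrays again lay below all wild type arrays, with differences of -0.61 (adjusted p = 0.0110) and -0.62 (adjusted p = 0.0128). The Adamts3 calls were lost without Ednrb null 29 (adjusted p = 0.0526), and in the other mutant without Ednrb NCC null 5 (0.0551) or 6 (0.0561). Adding the Actb ratio to the model ended the Ednrb null calls of Adamts19 (adjusted p = 0.0652) and Adamts3 (adjusted p = 0.302).

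Between the mutants, 4 of these 18 genes were higher in Ednrb null and none lower, with a median difference of 0.08. Adamts7, which cuts COMP and other matrix glycoproteins, was 8.58, 8.81 and 8.82 in Ednrb null and 8.17, 8.10 and 8.15 in Ednrb NCC null, with wild type between them at 8.44, 8.46 and 8.44. The mutants differed by 0.60 (adjusted p = 0.00281), a call lost with the Actb ratio in the model (0.60, adjusted p = 0.0782). Adamts6, a protease of the fibrillin matrix, differed by 0.55 (adjusted p = 0.00925) and was also higher than wild type in Ednrb null by 0.42 (adjusted p = 0.0350), a call that was lost on leaving out any of 7 arrays, those other than Ednrb NCC null 2 and 5 (adjusted p 0.0562 to 0.134). Adamts18 differed by 0.77 (adjusted p = 0.0294) and Adamtsl1 by 0.45 (adjusted p = 0.0207). The Adamts18 call was lost without Ednrb null 29 or 41 or any Ednrb NCC null array (adjusted p 0.0606 to 0.119), and the Adamtsl1 call without Ednrb null 29 or 41 or Ednrb NCC null 5 or 6 (0.0725 to 0.0918). With the Actb ratio in the model both differences were larger, at 1.18 for Adamts18 (adjusted p = 0.0626) and 0.65 for Adamtsl1 (adjusted p = 0.0716), and neither was called. Averaging the Adamtsl1 probe sets gave 0.36 (adjusted p = 0.109).

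**Figure D4:**
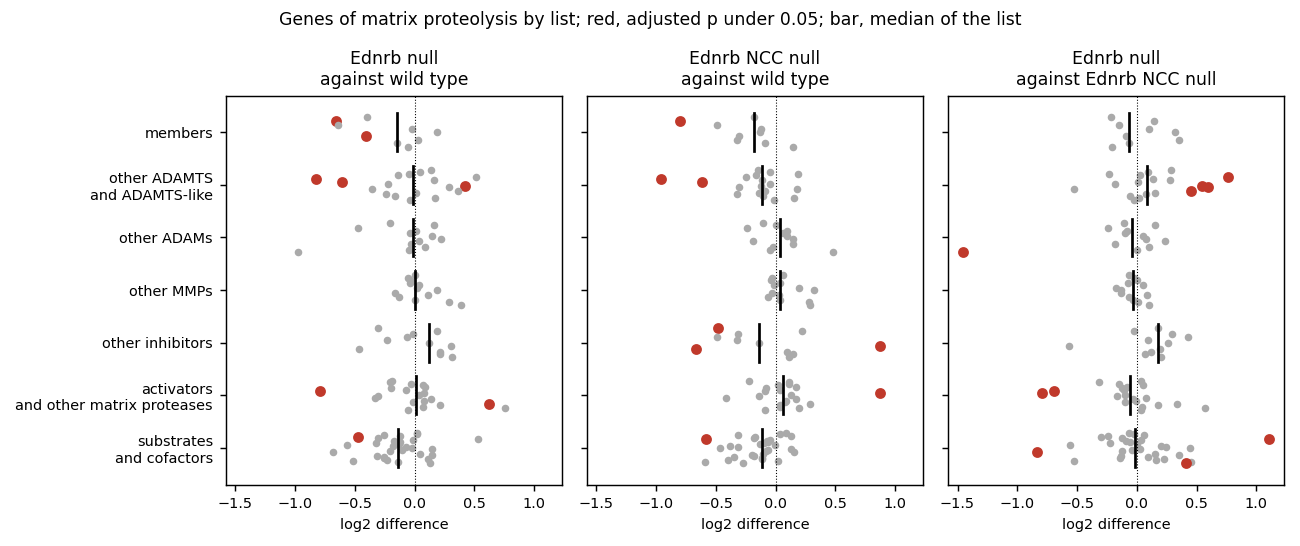
Log2 differences of the genes of matrix proteolysis by list, in the 3 comparisons. Each point is a gene, red marks an adjusted p under 0.05 in the limma fit over all genes, and the black bar is the median of the list. The red points of the other ADAMTS and ADAMTS-like list lie at -0.82, -0.61 and 0.42 in Ednrb null against wild type and at 0.45 to 0.77 between the mutants, while the other MMPs have no red point.

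None of 13 other matrix metalloproteinases, of 18 listed, was called in any comparison, and their differences from wild type ran from -0.17 to 0.39 in Ednrb null and from -0.07 to 0.32 in Ednrb NCC null. Of 12 other ADAMs, none was called against wild type, and Adamdec1, which is made by gut macrophages and stromal cells, was lower in Ednrb null than in Ednrb NCC null, a difference of -1.45 (adjusted p = 0.0117) that was not called without Ednrb null 41 (0.0552) or Ednrb NCC null 5 (0.0617), nor with the Actb ratio in the model (0.141). Ednrb null arrays read 7.26, 7.78 and 6.98 and Ednrb NCC null arrays 8.69, 9.14 and 8.55, with wild type at 8.48, 7.66 and 8.80. Macrophage markers moved with it, with 4 of 9 lower in Ednrb null than in Ednrb NCC null and a median difference of -0.48, and their mean log2 intensity was 7.84 to 8.22 in Ednrb null, 8.42 to 8.49 in Ednrb NCC null and 7.80 to 8.37 in wild type. Their part in the Adamdec1 difference was not tested.

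Of 11 other inhibitors, of 13 listed, none was called in Ednrb null against wild type or between the mutants. In Ednrb NCC null against wild type the broad protease inhibitor A2m was lower (difference -0.48, adjusted p = 0.0194), the matrix proteoglycan Spock2 was lower (-0.66, adjusted p = 0.0419), and its relative Spock1 was higher (0.87, adjusted p = 0.0332). For each of these genes all Ednrb NCC null arrays lay on the same side of all wild type arrays. The genes were named because they were called on these arrays, so that separation adds no support. The calls were near the threshold. A2m was not called without wild type 1B or Ednrb NCC null 5 or 6 (adjusted p 0.0610 to 0.0782). Spock1 was not called without wild type 1B or 1D or Ednrb NCC null 2 or 6 (0.0534 to 0.139), and Spock2 without wild type 1B or 1D, Ednrb null 41 or any Ednrb NCC null array (0.0582 to 0.154). Spock2 was -0.36 when its probe sets were averaged (adjusted p = 0.0504) and Spock1 was not called with only the 2 groups compared (0.0744). Timp1 and Timp4, the remaining TIMP genes, were not called and differed from wild type by 0.21 and 0.31 in Ednrb null. Reck, a membrane inhibitor of MMP2 and MMP14, differed by -0.01 in Ednrb null and by -0.31 in Ednrb NCC null (adjusted p = 0.146).

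Among 20 activators and other matrix proteases, Htra3, a secreted serine protease, had the smallest adjusted p against wild type. Its log2 intensity was 10.77, 10.74 and 10.76 in wild type, 9.99, 9.94 and 9.98 in Ednrb null and 10.68, 10.73 and 10.60 in Ednrb NCC null. Ednrb null thus stood alone, below wild type by a difference of -0.79 (adjusted p = 0.000183) and below Ednrb NCC null by -0.70 (adjusted p = 0.000690). The latter was -0.22 and not called when all Htra3 probe sets were averaged (adjusted p = 0.111). Plat, the tissue plasminogen activator, was higher in Ednrb null by 0.63 (adjusted p = 0.0186), a call lost without wild type 1B or Ednrb null 29 or 37 (0.0516 to 0.0777) or with the Actb ratio in the model (0.156). Furin, the convertase that opens several of these proenzymes, was not called (-0.20 and -0.08).

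Mep1a, an epithelial meprin, was higher in Ednrb NCC null than in wild type by 0.87 (adjusted p = 0.0104) and lower in Ednrb null than in Ednrb NCC null by a difference of -0.80 (adjusted p = 0.0116), which was not called without Ednrb null 41 (0.0544) or Ednrb NCC null 6 (0.0503), nor with the Actb ratio in the model (0.144). Gut epithelial markers moved with it: of 9, 3 were higher in Ednrb NCC null than in wild type and 6 were lower in Ednrb null than in Ednrb NCC null. Their mean log2 intensity was 10.32 to 10.47 in wild type, 9.76 to 10.21 in Ednrb null and 10.72 to 11.03 in Ednrb NCC null. Their part in the Mep1a difference was not tested.

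Of 30 substrates and cofactors, 1 was lower in each mutant against wild type and none higher. Col1a1, the main fibrillar collagen chain, was lower in Ednrb null (difference -0.47, adjusted p = 0.0497), and Col2a1, the cartilage collagen, was lower in Ednrb NCC null (-0.58, adjusted p = 0.0445). Between the mutants Col2a1 was higher in Ednrb null by 1.11 (adjusted p = 0.00203), Vcan, the versican that ADAMTS1 cuts, by 0.41 (adjusted p = 0.0430), and Lum, a small proteoglycan, was lower (-0.84, adjusted p = 0.0370). These calls were near the threshold, except that of Col2a1 between the mutants. Col1a1 was not called on leaving out any array but wild type 1C (adjusted p 0.0548 to 0.162), Col2a1 against wild type on leaving out any but Ednrb null 37 and 41 (0.0546 to 0.175), Vcan on leaving out wild type 1B, Ednrb null 29, 37 or 41 or Ednrb NCC null 5 or 6 (0.0575 to 0.176), and Lum on leaving out Ednrb null 29 or 41 or any Ednrb NCC null array (0.0812 to 0.145). With the Actb ratio in the model the calls of Col1a1 (adjusted p = 0.445), Vcan (0.332) and Lum (0.361) were lost. Averaging the Vcan probe sets gave 0.16 (adjusted p = 0.289), and averaging those of Col1a1 gave -0.40 (adjusted p = 0.0633). Of 8 cartilage markers, among them Col2a1, 2 were called higher in Ednrb null than in wild type, with a median difference of 0.02. Between the mutants 3 were called higher in Ednrb null, and Col2a1 itself was 1 of these. The median there was 0.18, with 3 of the 8 below 0. The part of the other cartilage markers in the Col2a1 difference was not tested. Vcan itself was 12.93, 13.07 and 12.88 in wild type, 13.20, 13.10 and 12.96 in Ednrb null and 12.81, 12.74 and 12.49 in Ednrb NCC null, an order unlike that of Adamts1.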

How the data were processed

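For each probe set the authors deposited an intensity per array, computed with RMA according to the submitters' processing notes. Which version, software and chip definition they used is not given in the sources used here. The deposited intensities were linear, from 5.69 to 61637, and log2 was taken with no pseudocount. RMA pulls small and dim differences toward 0, which makes folds of dim genes too small. No further normalization or filter was applied. Precision is limited by the 3 arrays per group.

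The array has 45101 probe sets, 64 of them controls. The platform annotation named 1 gene for 34945, several for 932, and did not list 9160. Each of 18193 genes was represented by the brightest of its probe sets (highest mean over 9 arrays). In R 4.3.3, limma 3.58.1 fitted group means to the 9 arrays together, with lmFit and then eBayes in its default form (no trend, not robust). A second fit took all 45037 probe sets. Tests were 2-sided with Benjamini-Hochberg adjustment over each fit's whole table, and an adjusted p under 0.05 was called. The fit was tested on simulated data.

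The members and lists were chosen with earlier results of these data known. Genes named were all members, Ednrb, up to 4 called genes of each list and comparison with the smallest p, and the 3 genes closest in profile to each called member. Timp1, Timp4, Reck, Furin, Xist, Uty and Krt19 were named outside this rule, after their values were seen. List sizes and medians are descriptions, with no set test. Alternatives covered centring, quantile normalization, an offset of 16, leaving out the dimmest 40% of genes, array weights, a trended and robust eBayes, averaging a gene's probe sets, testing all probe sets, the Actb ratio as a covariate, only the 2 groups compared, an adjusted p under 0.10 and leaving out each array.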

Additional observations from a re-analysis of the deposited data

How the results depend on the processing

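Adamts1 was called in Ednrb NCC null under all 20 alternatives (log2 -0.91 to -0.73) and in Ednrb null under 19 of 20 (-0.76 to -0.51), the exception being the Actb ratio as a covariate. As that ratio parts the Ednrb null arrays from all others, a fit with it cannot settle the Ednrb null comparisons. Mmp14 was called in Ednrb null under 10 of 20 and Adam19 in Ednrb null under 7. In Ednrb NCC null, Mmp2 was called under 4 against wild type and 8 between the mutants. Adamts5 was called under 1 in each mutant against wild type. Of the member values recomputed under these alternatives, 506 kept their side of the threshold, 23 became called and 11 lost the call; no called value changed sign.

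In Ednrb null against wild type the count of called member genes, 2, became 1 with centred arrays, the mean of probe sets or only the 2 groups compared, and 0 with the Actb covariate. It became 3, with Adam19, at an adjusted p under 0.10, with quantile normalization, the offset, without the dimmest genes and with trend and robust. The probe set count, 2, became 1, 1 and 0 with centring, only the 2 groups and the Actb covariate, and 3 at an adjusted p under 0.10, with quantile normalization, without the dimmest genes and with trend and robust. In Ednrb NCC null against wild type 1 gene became 2 at an adjusted p under 0.10, 3 with quantile normalization and 2 with array weights, and 1 probe set became 2 at that threshold or with quantile normalization. Between the mutants 0 genes became 1 at that threshold, with the offset, without the dimmest genes, with trend and robust, with array weights and with the mean of probe sets, and 0 probe sets became 3 at that threshold, 1 with trend and robust and 2 with array weights. Leaving out 1 array gave 1 to 3 genes and 1 to 5 probe sets, then 1 to 2 and 1 to 3, then 0 to 2 and 0 to 1, in that order of comparisons. The cause of these shifts was not tested. Over all genes the main counts of 917, 902 and 1187 fell to 131 (Actb covariate), 268 (without Ednrb NCC null 6) and 215 (Actb covariate), and rose to 1459 and 1550 at an adjusted p under 0.10 and to 2321 with array weights. With every probe set tested 2265, 1611 and 1984 probe sets were called, 5.03%, 3.58% and 4.41% of them against 5.04%, 4.96% and 6.52% of genes. Of the other called genes, Col1a1, Vcan and Lum also lost their calls in some of the other settings, as did Col2a1 and Spock2 in Ednrb NCC null. For Spock2 this was with every probe set tested in the limma fit (adjusted p = 0.0526). The calls of Adamtsl1, Htra3 and Spock1 that were lost under other processing are given above.

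No paired analysis was possible because the groups share no replicate numbers. With 3 arrays a group, signal near the lowest intensities is little above background, and differences well under 0.5 on the log2 scale were mostly not resolved.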
